A study of Mus musculus with 15 samples.

Results

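The genes described here are the insulin-like growth factor 1 gene Igf1, its receptor gene Igf1r, and the binding protein genes Igfbp2, Igfbp3, Igfbp4, Igfbp5, Igfbp6 and Igfbp7. They were chosen by name, though with earlier results of these data known, and all 8 were found among the 55487 genes of the deposited gene table. The RNA came from TTF cells (TTF commonly stands for tail-tip fibroblast) of female mice labelled as a C57BL6/CAST hybrid, so that reads over strain differences can be assigned to either parental genome. The 3 wild-type libraries, WT 1, WT 2 and WT 3, carry no labelled change at Sirt7. The 3 knockout libraries, KO 2, KO 9 and KO 22, are labelled SIRT7-KO, and their numbers match the titles of knockout lines c2, c9 and c22. Sirt7 encodes a nuclear deacetylase of the sirtuin family, and the comparison asks which RNA levels differ between libraries labelled knockout and wild type. Both groups share the sex and the hybrid background, and no treatment is labelled. The labels do not say whether the wild-type libraries came from separate mice or cultures or how the lines were made, so the p-values measure the spread between these libraries, and a difference between genotypes cannot be told apart from one between lines. Libraries of 9 other samples were not analysed here, among them lines with SIRT7 added back and replicate knockout libraries titled like the wild-type ones. If the match by number is right, the knockout lines belong to a differently titled set of samples than the wild-type libraries. A difference between those sets then cannot be told apart from one between genotypes either.

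IGF1 is a secreted growth factor that activates a tyrosine kinase receptor at the cell surface, and the signal passes through insulin receptor substrates to PI3 kinase and AKT. The classical binding proteins hold IGFs outside the cell, where they prolong the life of the ligand, limit its access to the receptor or, after cleavage by proteases, release it. Fibroblasts make and respond to IGF1, and connective tissue cells are a common source of binding proteins.

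Each library held between 61065582 and 61506413 counts, of which 37.0% to 37.9% of the split reads were assigned to a genome. Sirt7 itself had 833, 1107 and 598 counts in WT 1, WT 2 and WT 3 and 512, 694 and 787 in KO 2, KO 9 and KO 22, a log2 difference of -0.31 (SE 0.27, adjusted p = 0.515). The transcript Sirt7-201, singled out after its values were seen, had 53, 58 and 159 counts in wild type and 2, 0 and 0 in the knockout lines. The sources used here do not give the part of the gene that was removed, so the gene total does not check the labels. Fibroblast markers were present, with 12 of 12 listed genes at a mean of 1 CPM (counts scaled to a library total of 1000000) or more, and keratinocyte markers were nearly absent at 0 of 6. The knockout lines differed more among themselves than the wild-type libraries did. The coefficient of biological variation from edgeR was 0.135 for the wild-type and 0.378 for the knockout libraries. Over 16249 genes with counts in every library, the median ratio of the highest to the lowest library was 1.14 in wild type and 1.45 in the lines.

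Levels of different genes were compared as CPM per kilobase of exon. In wild type, Igfbp7 stood at 71.2 ± 0.499 (SD, n = 3) CPM per kb and Igf1r at 6.53 ± 0.174 (SD, n = 3). Igfbp6 followed at 4.07 ± 0.155, Igfbp2 at 3.38 ± 0.316 and Igfbp4 at 0.703 ± 0.260 (SD, n = 3 each). Igfbp3 at 0.233 ± 0.0117, Igf1 at 0.129 ± 0.00350 and Igfbp5 at 0.0697 ± 0.00592 CPM per kb (SD, n = 3 each) were the lowest of the 8. No neighbours in this order overlapped in wild type, although Igfbp6 and Igfbp2 changed places when length was taken from the longest transcript.

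In the knockout group the mean levels per length kept Igfbp7 first at 111 ± 37.4 CPM per kb, then Igf1r at 8.26 ± 1.08 (SD, n = 3 each). Igfbp2 had a mean of 5.15 ± 7.98, with an SD larger than the mean, and Igfbp6 stood at 0.774 ± 0.244 CPM per kb (SD, n = 3 each). Igfbp4 at 0.680 ± 0.211, Igf1 at 0.350 ± 0.0964, Igfbp3 at 0.273 ± 0.257 and Igfbp5 at 0.0299 ± 0.0136 CPM per kb (SD, n = 3 each) completed the order. The ranges of Igfbp6 and Igfbp4 overlapped, as did those of Igf1 and Igfbp3 and of Igfbp3 and Igfbp5, and the range of Igfbp2 spanned several others.

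**Figure D1:**
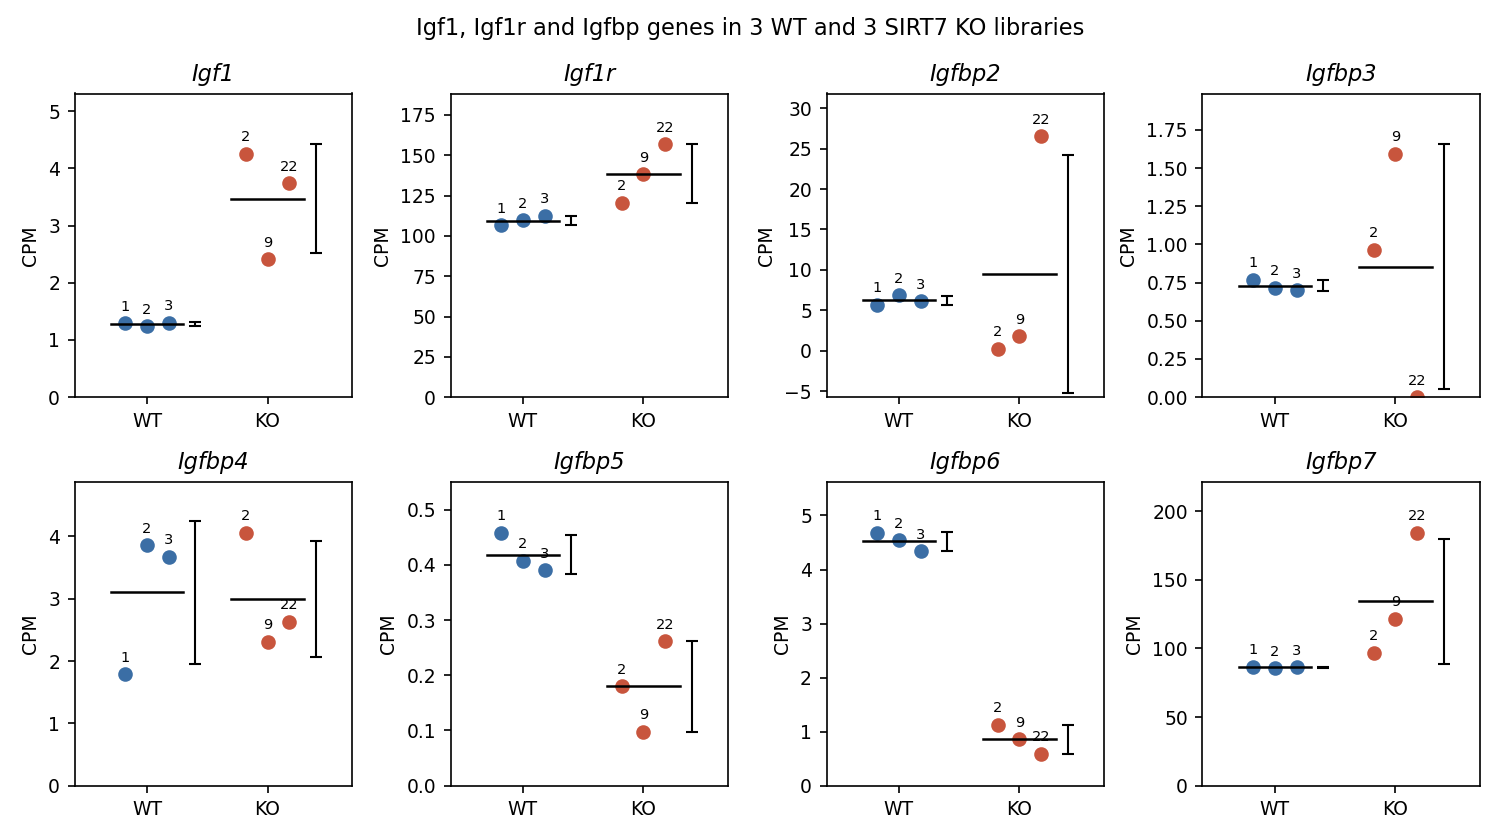
Level of each gene in the 6 libraries, in CPM on a linear axis of its own, with 3 wild-type (blue) and 3 knockout (red) points numbered by library, a line at the group mean and a bar of ± 1 SD (n = 3). Igf1 lies higher and Igfbp6 lower in all 3 knockout lines than in any wild-type library, while the knockout points of Igfbp2 run from 0.229 to 26.5; its SD bar reaches below 0, and Igfbp3 in KO 22 is at 0.

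Of the 8 genes, 1 rose and 1 fell in the knockout lines, and 6 did not pass the test (edgeR's quasi-likelihood test, adjusted p under 0.05 by Benjamini-Hochberg over 16678 genes). Over all genes tested, 6.73% passed in either direction, 3.54% higher and 3.19% lower in knockout. For 5 members the knockout and wild-type libraries did not overlap, against 35.9% of all genes tested. The median log2 difference was 0.31 over the 8 members and 0.02 over all genes. The members ran from -2.37 to 1.47, and their median lies between Igfbp3 (0.25, SE 1.12) and Igf1r (0.37, SE 0.12). It therefore gives no common direction.

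Igf1 (ENSMUSG00000020053, chromosome 10, 87858265 to 87937042, plus strand, GRCm38) encodes the ligand. It had 1.29, 1.24 and 1.30 CPM in WT 1, WT 2 and WT 3, and 4.26, 2.41 and 3.74 CPM in KO 2, KO 9 and KO 22. Every knockout line was above every wild-type library, with KO 9 the lowest of the lines. These levels rest on 76 to 80 counts in each wild-type library and 148 to 260 in each knockout line. Igf1 rose 2.77-fold, a log2 difference of 1.47 (SE 0.26, adjusted p = 0.0307). The call did not hold without WT 1 (adjusted p = 0.157), WT 2 (0.153) or WT 3 (0.153), nor when genes with low counts were kept in the test (0.0628), while the log2 difference stayed between 1.30 and 1.67. Leaving out a wild-type library left 51, 45 or 50 genes called in all, against 1123 with all 6 libraries. Genes of chromosome 10 were shifted as a whole, with medians of 0.213, 0.170 and 0.130 on the log2 scale above wild type in KO 2, KO 9 and KO 22, and with the chromosome medians taken out the log2 difference of Igf1 was 1.30 (adjusted p = 0.0419).

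Most Igf1 counts were assigned to the transcript Igf1-202 (chromosome 10, 87859068 to 87937042, 7052 bases), with 63, 74 and 74 counts in wild type and 218, 113 and 190 in knockout. That transcript held 89.8% of the gene's counts in wild type and 81.8% in knockout. Igf1-203 had 0 counts in each wild-type library and 17, 11 and 12 in the knockout lines. Igf1-206 likewise had 0 in each wild-type library and 8, 7 and 6 in the lines. These are estimates that divide reads between overlapping transcripts. The nearest tested neighbours were Stab2, 850239 bases away, with 0 to 0.0655 CPM in wild type and 0.212 to 0.521 in knockout (adjusted p = 0.0676), and the pseudogene Tyms-ps, whose log2 difference was -0.59 (adjusted p = 0.513).

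Igf1r (ENSMUSG00000005533, chromosome 7, 67952827 to 68233668, plus strand) encodes the receptor kinase. Its level was 106.5, 109.7 and 112.4 CPM in WT 1, WT 2 and WT 3 and 120.6, 138.3 and 156.9 CPM in KO 2, KO 9 and KO 22. The groups did not overlap, with KO 2 closest to wild type, but the log2 difference of 0.37 (SE 0.12) had an adjusted p of 0.115. Without KO 2 it was 0.47 (adjusted p = 0.0393). The transcript Igf1r-201 held nearly all of these counts, from 6454 to 6873 in wild type and from 7316 to 9514 in knockout.

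Igfbp6 (ENSMUSG00000023046, chromosome 15, 102144362 to 102149511, plus strand) encodes a binding protein known for its preference for IGF2. It had 4.68, 4.54 and 4.34 CPM in WT 1, WT 2 and WT 3 and 1.13, 0.862 and 0.588 CPM in KO 2, KO 9 and KO 22. All 3 lines were far below all wild-type libraries, and all counts belonged to the single annotated transcript Igfbp6-201. The gene was 5.15-fold lower in knockout, a log2 difference of -2.37 (SE 0.27, adjusted p = 0.00976). This call also failed without WT 1 (adjusted p = 0.0780), WT 2 (0.0738) or WT 3 (0.0717). Chromosome 15 as a whole had medians of -0.377, -0.205 and -0.215 on the log2 scale in the 3 lines, and with these taken out the log2 difference of Igfbp6 was -2.08 (adjusted p = 0.0190). Its neighbours on either side did not pass the test: Spryd3, 8127 bases away, at -0.16 (adjusted p = 0.243) and Soat2, 1014 bases away, at 0.05 (adjusted p = 0.957). In bulk RNA, fewer cells that express a gene and less RNA per cell cannot be told apart.

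**Figure D2:**
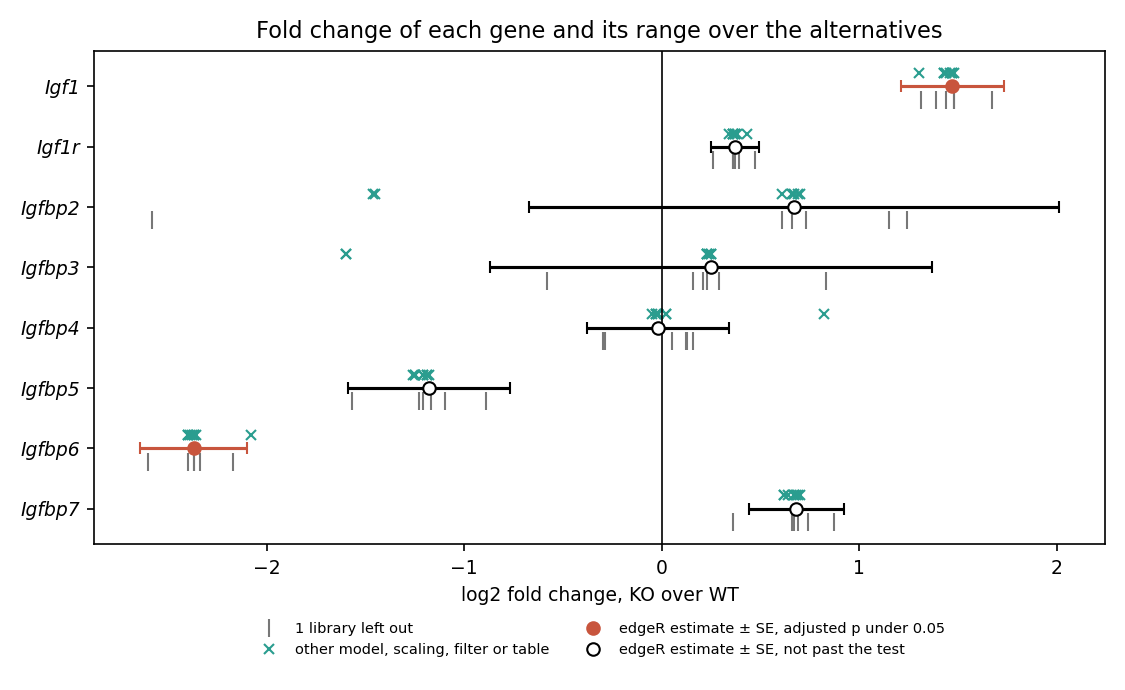
Log2 difference between knockout and wild type for the 8 genes, as points with bars of ± 1 SE from the fit over all 16678 genes (filled where the test was passed), with ticks for each library left out and crosses for the other alternatives. Igf1 at 1.47 and Igfbp6 at -2.37 passed the test, and the widest bars are those of Igfbp2 (SE 1.34) and Igfbp3 (SE 1.12).

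Igfbp2 (ENSMUSG00000039323, chromosome 1, 72824503 to 72852474, plus strand) encodes a binding protein with an integrin-binding motif. It had 5.70, 6.86 and 6.15 CPM in WT 1, WT 2 and WT 3, but 0.229, 1.82 and 26.5 CPM in KO 2, KO 9 and KO 22. KO 2 and KO 9 lay below all wild-type libraries and KO 22 above them, and the highest line was 116 times the lowest. Genes lacking counts in some library, Igfbp3 among them, were left out of this comparison. Of the 16249 tested genes that remained, only 23, or 0.142%, had a ratio among the lines at least as large as that of Igfbp2, with Igfbp2 itself counted. The log2 difference of 0.67 (SE 1.34, adjusted p = 0.796) therefore had no stable direction: without KO 22 it was -2.58 (adjusted p = 0.0857), and limma-voom gave -1.45 (adjusted p = 0.554). Igfbp2-201 held most counts in each library, with 341, 418 and 369 in wild type and 14, 98 and 1609 in the lines.

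Igfbp5 (ENSMUSG00000026185, chromosome 1, 72857932 to 72874884, minus strand) lies 5457 bases from Igfbp2 and encodes a binding protein that attaches to extracellular matrix. It had 0.459, 0.407 and 0.390 CPM in WT 1, WT 2 and WT 3 and 0.180, 0.0976 and 0.262 CPM in KO 2, KO 9 and KO 22, which is 24 to 28 counts against 6 to 16. The lines lay below wild type without overlap, and the log2 difference was -1.18 (SE 0.41, adjusted p = 0.132). Unlike its neighbour, Igfbp5 in KO 22 was not above wild type. On the other sides of the pair, Rpl37a was at -0.29 (adjusted p = 0.125) and Tns1 at -0.03 (adjusted p = 0.932).

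Igfbp6 had the largest difference between groups. Igfbp2 had the largest ratio between lines among the members with counts in every library. The promoters of these genes and of Igfbp5, the neighbour of Igfbp2, are printed to show how unlike they are. They were picked after the values were seen. Each is the 250 bases before a RefSeq start in GRCm38.p6, read 5′ to 3′ on the gene's strand, and all 8 genes had such a start. Capitals mark matches on either strand to 5 motifs. They are the TATA box with the letters TATAAA, the GC box with the letters GGGCGG, the box named by its letters CCAAT, the AP-1 motif with the letters TGANTCA and the E-box with the letters CACGTG. No matches overlap in the windows printed.
Igfbp6, chr15:102143936-102144185, plus strand: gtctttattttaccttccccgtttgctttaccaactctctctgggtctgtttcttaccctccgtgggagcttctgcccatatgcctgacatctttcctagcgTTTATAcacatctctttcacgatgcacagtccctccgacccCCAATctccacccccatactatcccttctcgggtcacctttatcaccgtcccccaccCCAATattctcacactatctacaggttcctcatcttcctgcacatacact
Igfbp2, chr1:72824230-72824479, plus strand: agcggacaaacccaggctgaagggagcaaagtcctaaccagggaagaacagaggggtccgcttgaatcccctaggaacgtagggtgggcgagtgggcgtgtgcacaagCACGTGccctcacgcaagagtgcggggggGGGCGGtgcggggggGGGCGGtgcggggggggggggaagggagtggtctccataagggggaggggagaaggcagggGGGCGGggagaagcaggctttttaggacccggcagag
Igfbp5, chr1:72874866-72875115, minus strand: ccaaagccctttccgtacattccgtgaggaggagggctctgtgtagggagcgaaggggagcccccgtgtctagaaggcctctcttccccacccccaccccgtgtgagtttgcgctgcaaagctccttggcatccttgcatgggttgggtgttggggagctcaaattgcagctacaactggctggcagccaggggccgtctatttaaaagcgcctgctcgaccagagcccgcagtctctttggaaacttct
The Igfbp6 window holds 7 CpG dinucleotides, 1 TATA match on the reverse strand and 2 CCAAT matches. It ends at 102144185, while the annotated start of Igfbp6-201 is at 102144362, so the bases next to that start lie outside it. The Igfbp2 window holds 14 CpG, 3 GC boxes and 1 E-box, while the Igfbp5 window holds 10 CpG and no match. Igfbp2 has a second RefSeq start, whose window (chr1:72825137-72825386, not printed) holds 11 CpG, 1 AP-1 match and no GC box or E-box. Among 32851 windows of 250 bases the median is 6 CpG, and the shares with a match are 12.4% for the TATA box, 32.7% for the GC box, 33.8% for CCAAT, 6.75% for AP-1 and 6.02% for the E-box. The windows of Igf1r with 42 CpG, Igfbp3 with 32, Igfbp7 with 26 and Igfbp4 with 22 are richer, and that of Igf1 has 5. The Igf1 window starts at 87860861, downstream of the annotated start of Igf1-202 at 87859068, so it is not the upstream sequence of the transcript with most counts. A match describes these letters only.

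Igfbp3 (ENSMUSG00000020427, chromosome 11, 7206086 to 7213923, minus strand) encodes the main carrier of IGFs in blood. It had 0.770, 0.717 and 0.699 CPM in WT 1, WT 2 and WT 3 and 0.966 and 1.59 CPM in KO 2 and KO 9. KO 22 had 0 counts, where 3 counts would be 0.0490 CPM. Thus 2 lines lay above wild type and 1 below, and the log2 difference was 0.25 (SE 1.12, adjusted p = 0.914). Without KO 22 it was 0.83 (adjusted p = 0.120), without KO 9 it was -0.58 (adjusted p = 0.815), and limma-voom gave -1.60 (adjusted p = 0.586).

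Igfbp4 (ENSMUSG00000017493, chromosome 11, 99041244 to 99054392, plus strand) encodes a binding protein that restrains IGF1 until the protease PAPP-A cleaves it. It had 1.79, 3.86 and 3.67 CPM in WT 1, WT 2 and WT 3 and 4.06, 2.31 and 2.63 CPM in KO 2, KO 9 and KO 22. WT 1 was the lowest of all libraries and the groups overlapped, with a log2 difference of -0.02 (SE 0.36, adjusted p = 0.980). The deposited split tables gave other totals for this gene. Genome 1, genome 2 and unassigned reads together came to 231, 201 and 257 counts in wild type and 508, 400 and 283 in the lines, against 109, 237 and 226 and 248, 142 and 161 for all reads. Over the 6 libraries that is 1.67 times the count of all reads, a ratio reached by 0.630% of tested genes. From the split sums, an alternative added after the data were seen, the log2 difference was 0.82 (adjusted p = 0.0921), so no direction is given for Igfbp4.

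Igfbp7 (ENSMUSG00000036256, chromosome 5, 77349240 to 77408041, minus strand) encodes a secreted matrix protein that binds IGFs only weakly. It had 86.6, 85.4 and 86.2 CPM in WT 1, WT 2 and WT 3 and 96.6, 121.5 and 184.3 CPM in KO 2, KO 9 and KO 22. The groups did not overlap, KO 22 was the highest, and the log2 difference was 0.68 (SE 0.24, adjusted p = 0.136). Without KO 2 it was 0.87 (adjusted p = 0.0486), without KO 22 it was 0.36 (adjusted p = 0.105), and DESeq2 gave 0.67 (adjusted p = 0.0499). The transcript Igfbp7-202 (1200 bases, against 1116 for Igfbp7-201) took 34.7% of the gene's counts in WT 2 and 38.9% in KO 9, but at most 0.435% in each of the other 4 libraries. In WT 2 and KO 9, 842 and 1118 of its estimated counts were assigned to genome 1 and 0 and 5 to genome 2. Both transcripts cover nearly the same span, with Igfbp7-202 running from 77349248 to 77408040. These estimates divide reads between overlapping transcripts, and whether the transcript is specific to a genome was not tested.

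The hybrid background allowed the share of genome 1 among allele-assigned reads to be compared, where numbers of reads are the deposited estimated counts. The sources used here do not name the strain behind genome 1. Of the members, 6 had enough reads to be tested and 3 passed, namely Igf1r, Igfbp2 and Igfbp6, against 23.0% of the 12984 genes tested. Because whole chromosomes differed between wild-type and knockout libraries, the test was repeated with the genome 1 to genome 2 ratio of the rest of the chromosome taken out. Then 0 of the 6 members passed, against 0.524% of all genes.

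For Igf1r, the genome 1 share was 59.8%, 60.2% and 62.1% in WT 1, WT 2 and WT 3 and 32.6%, 36.2% and 35.1% in KO 2, KO 9 and KO 22. The rest of chromosome 7 stood at 56.7% to 58.2% in wild type and 31.6% to 31.8% in the lines. The log2 difference in allelic ratio was -1.55 (SE 0.13, adjusted p = 0.00144), and 0.00 (SE 0.09, adjusted p = 1.0) with the chromosome ratio taken out. The allelic difference of Igf1r was thus as large as that of its chromosome.

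For Igfbp2, the share was 30.0%, 22.2% and 23.7% in wild type and 33.3%, 52.9% and 56.8% in KO 2, KO 9 and KO 22, where KO 2 had only 6 allele-assigned reads (Wilson 95% interval 9.68% to 70.0%). Chromosome 1 stood at 36.3% to 37.3% in wild type and 59.2% to 64.9% in the lines. The log2 difference in allelic ratio was 1.66 (SE 0.45, adjusted p = 0.0452), or 0.23 (adjusted p = 0.886) with the chromosome ratio taken out. It was not called without WT 1 (adjusted p = 0.0899), WT 2 (0.143), WT 3 (0.143), KO 9 (0.0619) or KO 22 (0.188). In KO 22, where the gene was highest, 158 reads came from genome 1 and 120 from genome 2, so reads of both genomes were present.

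Igfbp6 came almost wholly from genome 1 in wild type, at 96.8%, 96.4% and 91.8%, while the rest of chromosome 15 stood at 55.9% to 56.3%. Only 3.52% of 12538 autosomal genes had a pooled wild-type share as high. In KO 2, KO 9 and KO 22 the share of Igfbp6 was 54.0%, 78.9% and 86.1%, beside 41.2%, 55.5% and 35.0% for the chromosome. The read counts show the same: genome 1 gave 245, 240 and 202 in wild type and 34, 30 and 31 in the lines, whereas genome 2 gave 8, 9 and 18 and then 29, 8 and 5. Reads from genome 1 were thus fewer in every line, and those from genome 2 overlapped between groups. The log2 difference in allelic ratio was -2.89 (SE 0.76, adjusted p = 0.0415), or -2.19 (SE 0.81, adjusted p = 0.365) with the chromosome ratio taken out. It was not called without WT 1 (adjusted p = 0.135), WT 2 (0.135), WT 3 (0.0623), KO 2 (0.0841) or KO 9 (0.0554).

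Igf1 lay at the other end, with genome 2 dominant in both groups. Genome 1 gave 4, 0 and 0 reads in wild type against 20, 27 and 31 from genome 2, and 6, 4 and 0 in the lines against 101, 48 and 64. The pooled share of genome 1 was 4.88% of 82 reads in wild type and 4.48% of 223 in knockout, and the 0 counts of WT 2, WT 3 and KO 22 allow shares of up to 11.1%, 9.68% and 4.69%. Only 4.12% of autosomal genes had so low a share in wild type and 3.95% in knockout, while chromosome 10 stood at 36.8% to 37.1% and 46.9% to 48.7%. The log2 difference in allelic ratio, -0.20 with an SE of 2.65 (adjusted p = 0.995), was too imprecise to give a direction, and the rise in Igf1 is visible in the genome 2 reads of all 3 lines. How strain differences in the sequence affect read assignment at Igf1 and Igfbp6 was not tested.

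Igfbp7 was close to even in wild type, at 50.5%, 49.7% and 51.8%, and the lines went apart at 61.1%, 40.4% and 45.0%. Chromosome 5 stood at 53.5%, 34.6% and 51.2% in KO 2, KO 9 and KO 22 and at 45.6% to 46.1% in wild type, and the log2 difference in allelic ratio was -0.11 (SE 0.32, adjusted p = 0.868). Igfbp4 ran at 36.8%, 44.8% and 47.9% in wild type and 34.7%, 19.6% and 63.2% in the lines, beside 57.9%, 31.6% and 63.6% for chromosome 11 in the lines. Its log2 difference was -0.34 (SE 0.73, adjusted p = 0.799), and it rests on the split counts whose total differs from that of all reads. Igfbp3 and Igfbp5 had too few allele-assigned reads for the test, with means of 5.17 and 10.8 per library. In Igfbp5, genome 1 gave 24, 13 and 12 reads in wild type and genome 2 gave 0, 4 and 0.

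**Figure D3:**
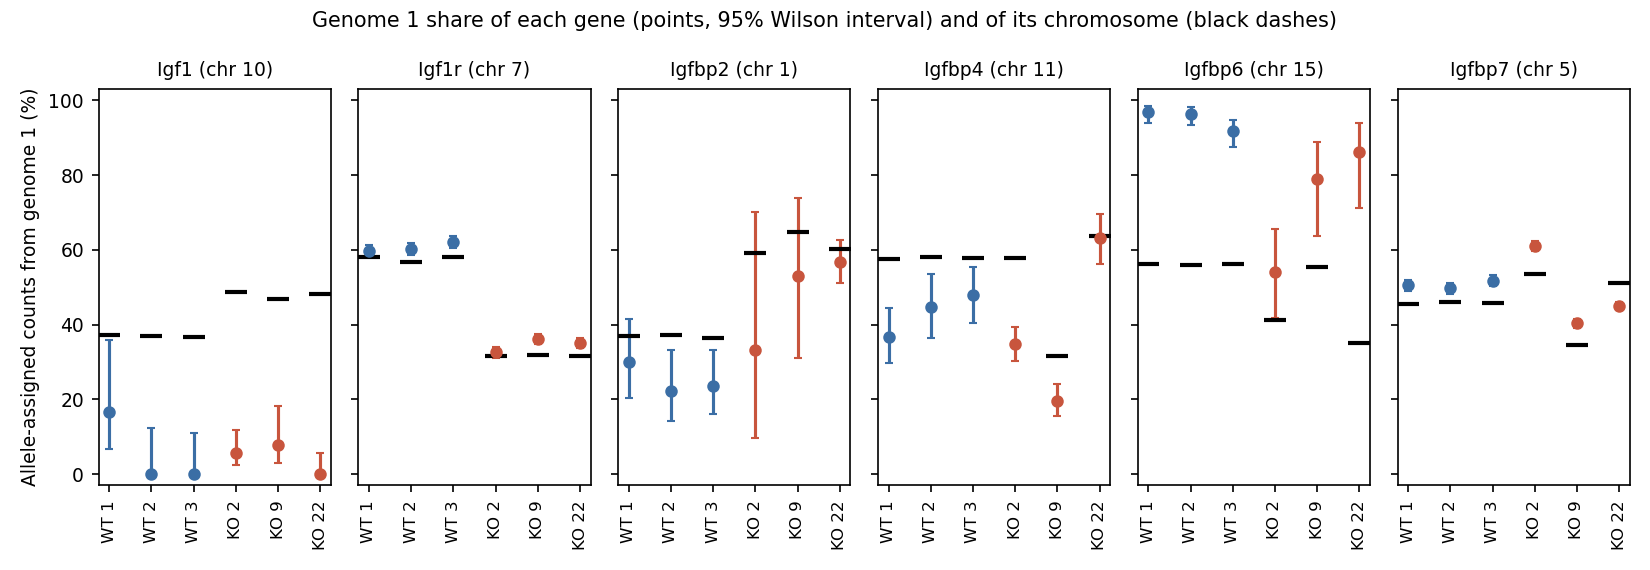
Share of genome 1 among allele-assigned reads of the 6 tested genes in each library, in percent with Wilson 95% intervals; black dashes give the share of the rest of the chromosome. Igf1r moves with chromosome 7, Igfbp6 is at 91.8% or more in wild type and between 54.0% and 86.1% in the lines, and Igf1 is at 16.7% or less in every library.

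The other genes of the pathway were described from a list of 69, of which 59 could be tested. In the knockout lines 2 of these 59 rose and 57 did not pass edgeR's test, a share near the 3.54% of all genes called higher. At an unadjusted p under 0.05, 9 were higher and 8 lower, beside 13.8% and 12.5% of all genes. Their median log2 difference was 0.02, as it was for all genes. Other ligands were hardly present: Igf2, the second IGF, had at most 6 counts in any library, and Ins1 and Ins2 had 0 counts. The binding protein gene Igfbp1 also had 0 counts. The IGF2 clearance receptor Igf2r was at 153.1, 143.7 and 145.2 CPM in wild type and 143.7, 232.1 and 159.9 in KO 2, KO 9 and KO 22 (log2 difference 0.31, adjusted p = 0.339).

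Among the proteases and stanniocalcins, Pappa, which encodes the PAPP-A protease that cleaves IGFBP4, rose. It had 5.76, 5.41 and 5.74 CPM in wild type and 11.3, 33.5 and 14.4 CPM in KO 2, KO 9 and KO 22, with KO 9 the highest. The log2 difference was 1.84 (SE 0.41, adjusted p = 0.0499). This call stood at the threshold: the adjusted p was 0.0502 with RLE scaling, 0.0519 with library totals only, 0.0729 with limma-voom and 0.0993 with no filter on low counts. It was lost without WT 1 (adjusted p = 0.200), WT 2 (0.191) or WT 3 (0.195). Without KO 9 the log2 difference was smaller, at 1.22, and the call held (adjusted p = 0.0206). The other 5 tested genes of that group did not pass the test.

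In the growth hormone branch Socs2, a feedback inhibitor of growth hormone signalling, rose. It had 16.1, 16.0 and 17.4 CPM in wild type and 29.6, 23.9 and 34.0 CPM in the lines, a log2 difference of 0.86 (SE 0.16, adjusted p = 0.0325). It lies on chromosome 10 as Igf1 does, and with chromosome medians taken out the log2 difference was 0.69 (adjusted p = 0.0624). The call was also lost without WT 1 (adjusted p = 0.164), WT 2 (0.160) or WT 3 (0.152) and with no filter on low counts (0.0655).

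The 12 adaptors, 11 PI3 kinase and AKT genes, 14 effectors and 8 genes whose products bind IGFBPs or carry their domain described here did not pass the test. Among the adaptors, the effectors and the last group, the smallest p belonged to Irs2, an insulin receptor substrate, with a log2 difference of 0.66 (adjusted p = 0.0565), Deptor, an mTOR inhibitor, with -0.87 (adjusted p = 0.0543), and Ccn4, a matricellular protein gene, with 0.37 (adjusted p = 0.0709).

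**Figure D4:**
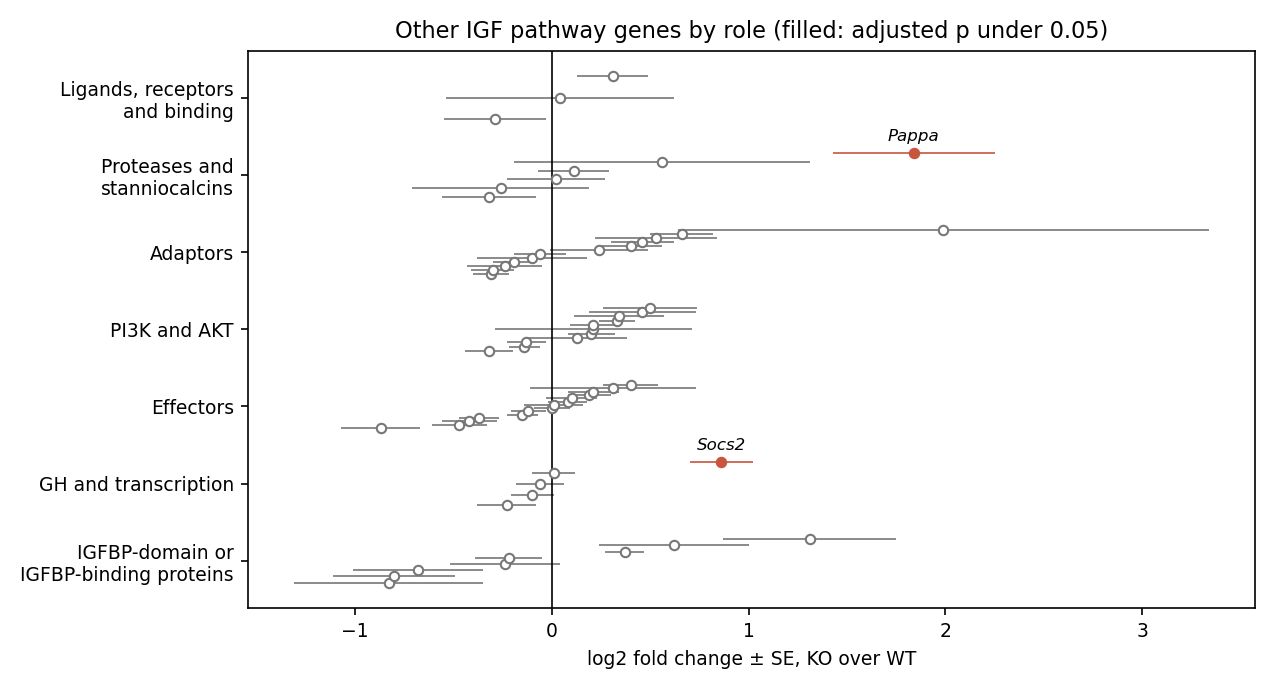
Log2 difference between knockout and wild type for 59 tested genes of the IGF pathway list, with bars of ± 1 SE, by role; filled points are past adjusted p under 0.05. Pappa at 1.84 and Socs2 at 0.86 lie above 0, and the other 57 did not pass the test.

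Markers of other cells were measured beside these differences. The summed level of the 12 fibroblast markers was 18100 to 18400 CPM in wild type and 28300 to 36600 in the lines, and that of the 5 smooth muscle and pericyte markers 7230 to 8050 and 8660 to 12200. Of 4 immune markers, Adgre1 and Cd3e were at 0 in every library, and the sum was 4.51 to 4.83 CPM in wild type and 2.62 to 6.19 in the lines. The 4 Schwann and neural markers summed to 1.60 to 1.74 CPM in wild type and 2.42 to 3.07 in the lines, and the 4 skeletal muscle markers, with Myod1, Myog and Pax7 at 0, to 0.782 to 0.983 and 1.06 to 1.33. Lower in the lines were the 6 chondrocyte and bone markers, at 59.5 to 68.7 CPM in wild type and 43.2 to 55.2 in the lines, and the 3 melanocyte markers, at 14.4 to 16.3 and 5.89 to 9.40. The adipocyte and endothelial sums overlapped between groups, at 14.7 to 18.6 and 3.81 to 40.0 CPM and at 2.28 to 2.64 and 0.752 to 5.56 CPM. A few genes can carry such sums. A mean of 1 CPM or more was reached by 2 of the 6 chondrocyte and bone and 2 of the 3 melanocyte markers. In the immune, Schwann and neural, skeletal muscle, adipocyte and endothelial groups 1 gene each reached it. The most abundant marker was Col1a1 for fibroblasts, Acta2 for smooth muscle, Runx2 for chondrocyte and bone and Mitf for melanocytes. The part of these cell types in the differences of Igf1, Igfbp6 and Igfbp2 was not tested.

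Genes with the most similar pattern were read from Pearson's r of log2 CPM over the 6 libraries among 10070 genes, as a description in which all genes share the same libraries. The closest to Igf1 were Tm4sf1 (r = 0.9987) and Setd2 (0.9966), and the closest to Igfbp6 were Ermp1 (0.9987) and Mapkapk3 (0.9985). Ror2 (0.9989) and Ccnl2 (0.9979) were the closest to Igfbp2, with Ror2 at 49.8, 65.8 and 94.3 CPM in KO 2, KO 9 and KO 22, the same order of lines over a much narrower range. For Igf1r they were Ccdc157 (0.9958) and Fkbp14 (0.9956), for Igfbp7 Dvl3 (0.9978) and Aff3 (0.9958), and for Igfbp5 Ppard (0.9992) and Prx (0.9967). Mipep (0.9968) and Nxpe3 (0.9950) followed Igfbp3, both lowest in KO 22. Ntn1 (0.9873) and Fkbp2 (0.9838) followed Igfbp4, both lowest in WT 1. All these genes were picked for the highest r among 10070 over only 6 libraries, so a high r and a shared pattern follow from that choice. Shared regulation was not tested.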

How the data were processed

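Per the labels' protocols, poly(A) RNA was extracted with TRIZOL and sequenced at BGI. Tools in the submitters' processing notes are StringTie 1.3.3, HISAT2 2.1.0, Trimmomatic 0.36, FastQC 0.11.3, DESeq2 1.32.0 and SAMtools 0.1.19, with builds mm10 and GRCm38; the sources used here do not give settings, strand or annotation. The deposited tables hold estimated counts of genes and transcripts, once from all reads and once from reads divided by parental genome (1, 2 or unassigned). The design had assumed raw counts; the deposited values are whole numbers and were used as they are. The knockout columns were matched to lines by number, and may instead be the replicate knockout libraries, whose titles carry no line number. Of the genes, 55227 matched GENCODE M21 (GRCm38), and 260 with 0.0319% of counts did not.

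The groups were compared with edgeR 4.0.16 (R 4.3.3), quasi-likelihood test, with TMM scaling, its default low-count filter and Benjamini-Hochberg adjustment over all genes tested; adjusted p under 0.05 was called, and all adjusted p-values come from edgeR unless another tool is named. CPM is counts per 1000000 counts of a library. Allelic ratios were tested in edgeR with terms for library, allele and allele by group, where a gene averaged 20 or more allele-assigned counts per library. The SE of an edgeR log2 difference was computed as its size divided by the square root of the test's F statistic. Intervals of shares are Wilson 95% intervals, and the limit of a share or level at 0 is 3 counts; both cover counting error only. Both models were also run on simulated data with the same spread in both groups and no shift of whole chromosomes. Those runs cannot check the calls under the unequal spread and chromosome shifts of these libraries. Named were all members and the pathway genes past the threshold. For roles without such a gene, other than PI3 kinase and AKT, the gene with the smallest p was named. The nearest tested neighbours are given for Igf1, Igfbp2, Igfbp5 and Igfbp6 only. Per member the 2 genes of highest r are given (mean CPM of at least 5, prior count 2, unnamed genes left out). The members and lists were chosen with earlier results of these data known. Some items of the pathway list are not reported here. Alternatives were DESeq2 1.42.0, limma 3.58.1 (voom), other scalings, filters and count minimums, chromosome medians or ratios taken out, and each library left out.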

Additional observations from a re-analysis of the deposited data

How the results depend on the processing

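Over 14 alternatives the log2 difference of Igf1 stayed between 1.30 and 1.67, with 10 past the threshold, and that of Igfbp6 between -2.60 and -2.08, with 11 past it. The number of members called higher was 1 as reported, 0 with no filter on low counts, 2 with DESeq2 and 0 to 3 when 1 library was left out. The number called lower was 1 as reported and 0 to 1 when 1 library was left out, being 0 without each wild-type library in turn. Of the 59 pathway genes described, 2 were higher as reported, 1 with RLE scaling, 1 with library totals only, 1 with limma-voom, 2 with limma-voom weighted by group, 3 with chromosome medians taken out, 0 with no filter, 5 with DESeq2 and 0 to 8 with 1 library left out. Of the same 59, 0 were called lower by edgeR as reported (8 at an unadjusted p under 0.05), 1 with library totals only, 1 with limma-voom, weighted by group or not, 3 with DESeq2 and 0 to 7 with 1 library left out. The allelic test called 1 member higher and 2 lower in genome 1 share; with the chromosome ratio taken out it called 0 and 0, and with 1 library left out 0 to 1 and 1 to 2, and the allelic log2 difference of Igf1r became 0.00. Over all genes, 1123 were called as reported, 2590 with DESeq2, 396 with no filter, and 45 to 2482 with 1 library left out. The cause of these changes was not tested. No paired analysis was possible because the wild-type columns carry the numbers 1, 2 and 3 and the knockout columns 2, 9 and 22, which share only 1 number. The sum of split counts was tried after seeing the data. Depth limits Igfbp3, Igfbp5 and the allele shares of Igf1 in particular.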
